A study of Drosophila melanogaster with 2 samples.

Results

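The Cpr genes are the largest family of cuticle protein genes in Drosophila melanogaster, and 70 of the 13945 protein-coding genes on the 6 major chromosome arms belong to it here. They were taken from the Ensembl BDGP6 annotation by symbol alone (Cpr followed by a digit), and no binding measurement entered that rule. The family was, however, chosen with earlier results of these data known. The other 13875 protein-coding genes served as the comparison. The 3L arm carried 35 members, 2R carried 21, 2L and 3R carried 5 each, X carried 4 and the arm 4 carried 0. The data are chromatin immunoprecipitation followed by sequencing (ChIP-seq) of p53 in whole embryos aged 0 to 24 hours, of mixed sex, with 2 biological replicates numbered 2 and 3 and a single group. All embryos came from a p53-MiMIC-GFP line, in which an eGFP exon placed in an intron of p53 yields a p53-eGFP fusion protein. The protocol text names an anti-GFP antibody, whereas the antibody field of the labels reads p53. No second genotype, age or treatment was measured. A whole embryo mixes all tissues and all embryonic ages, so binding confined to the epidermis and weaker binding in many tissues cannot be told apart. No control library was analysed here.

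Cpr proteins are secreted by the epidermis and carry a chitin-binding domain, the Rebers and Riddiford consensus, through which they attach to chitin fibres. Together with chitin they form the cuticle, the layered external skeleton that the embryo first lays down late in its development and that is replaced at each moult under the steroid hormone ecdysone. Different members serve larval, pupal or adult cuticle, or soft and hard regions of it. p53 is a sequence-specific transcription factor best known in the fly for inducing cell death genes after DNA damage.

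Chaining members whose gene bodies lay within 10 kb of each other gave 34 genomic units. Of these, 11 were clusters of 3 or more members and held 45 genes, 2 were pairs, and 21 were members standing alone. Members were short, with a median gene length of 1094 bp against 2171 bp for other protein-coding genes. A single annotated transcription start site (TSS) was found in 63 members (90%), against 73.4% of other genes. Another protein-coding gene's TSS, of the family or not, lay within 1 kb of 6 members (8.57%), against 43.1% of other genes. Another Cpr gene was the owner of the closest other TSS for 28 of the 70 members. The GC content around the TSS had the same median, 43.5%, in both sets.

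The core promoters held a TATA word more often than those of other genes. The TATA word, TATAAA on the gene's own strand with its first base 40 to 20 bases before the start, was present in 34 of 70 members (48.6%, 95% Wilson interval 37.2 to 60.05%). It was present in 7.59% of the other 13875 promoters. The measure planned first, from 250 bases before to 50 after the start on both strands, gave 70% of members and 45.7% of others. The narrow window of 40 to 20 bases was chosen after the data were seen. The sequences that follow show the 60 bases before the annotated start, 5′ to 3′ on the gene's strand, with the word in capitals where it falls in that window. They were read from the RefSeq Release 6 assembly (dm6 coordinates) and were chosen because the binding results return to these genes. They comprise the 3 members of the Cpr65E cluster and 3 further members whose regions were among the stronger ones of the family. The others are the member closest to a peak of the thresholded list described below, and 2 members with regions but without the word in the window.
Cpr65Ea, 3L:7086609-7086668, minus strand: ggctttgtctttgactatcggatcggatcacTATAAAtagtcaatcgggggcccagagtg
Cpr65Eb, 3L:7088788-7088847, minus strand: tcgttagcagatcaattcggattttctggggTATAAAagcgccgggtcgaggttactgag
Cpr65Ec, 3L:7093144-7093203, plus strand: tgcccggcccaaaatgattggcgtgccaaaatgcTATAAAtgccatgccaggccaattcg
Cpr31A, 2L:10054153-10054212, plus strand: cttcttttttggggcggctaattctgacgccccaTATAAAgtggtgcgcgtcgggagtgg
Cpr78Cc, 3L:21300520-21300579, plus strand: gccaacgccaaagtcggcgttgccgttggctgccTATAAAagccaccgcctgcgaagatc
Cpr65Av, 3L:6139975-6140034, minus strand: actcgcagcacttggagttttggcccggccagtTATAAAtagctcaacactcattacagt
Cpr76Ba, 3L:19518333-19518392, minus strand: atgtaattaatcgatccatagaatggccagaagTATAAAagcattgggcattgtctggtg
Cpr73D, 3L:16957690-16957749, minus strand: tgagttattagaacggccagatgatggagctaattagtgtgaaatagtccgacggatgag
Cpr92A, 3R:19598956-19599015, minus strand: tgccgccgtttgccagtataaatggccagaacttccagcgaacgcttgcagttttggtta
In the 7 promoters with capitals the word began 26 to 29 bases before the start. Cpr92A holds the same letters outside the window, and Cpr73D does not hold them in these 60 bases.

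The deposited results were lists of regions, each with a summit (the position of highest signal), the authors' signal value and a q value. The IDR list, for irreproducible discovery rate, was deposited as optimal thresholded peaks of both replicates and held 2290 peaks. Its weakest signal, 75.8, was also that of the pooled region ranked 2290. A peak in it need not have a region in each replicate list. For example, the peak in an intron of tna, with a signal of 114, had no matching region in replicate 2. The pooled list held 26752 regions, of which 3355 had a q of 0.01 or less. The replicate lists held 30000 regions each, with 1847 at that q in replicate 2 and 4186 in replicate 3. The pooled and replicate lists were deposited as peaks together with background, so a region in them is not by itself a called peak. Signal values were ranked only within a list. The lists give no read counts, so the depth of each library is unknown and intervals on shares cover counting error over genes only. Neighbouring genes can share a region and are not independent.

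No Cpr gene had a p53 peak of the IDR list at its promoter. The IDR list placed a summit inside the 1 kb window around a TSS for 0 of 70 Cpr genes, which allows a share of up to 4.29% by a floor of 3 counts (the Wilson interval ends at 5.20%), against 2164 of the 13875 other protein-coding genes (15.6%). The same count was 0 of 70 among pooled regions with a q of 0.01 or less, against 21.4% of other genes. It was also 0 of 70 at that q in replicate 2, against 12.2%, and 0 of 70 in replicate 3, against 25.7%. The smallest q at any member was 0.0408 in the pooled list, 0.0247 in replicate 2 and 0.0145 in replicate 3.

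When the background regions were included, some members had a region, but fewer than other genes. A pooled summit lay within 1 kb of a TSS at 21 of 70 Cpr genes (30%, 95% Wilson interval 20.5 to 41.5%), against 61.3% of other genes. In replicate 2 the count was 28 of 70 (40%, 29.3 to 51.7%), against 60.3%. In replicate 3 it was 25 of 70 (35.7%, 25.5 to 47.4%), against 64.3%. In each of these 3 lists the upper end of the interval for the family lay below the share of the other genes. A region in both replicates was found at 16 members (22.9%), against 49.7% of other genes. Of the 70 members, 12 had one in replicate 2 alone, 9 in replicate 3 alone and 33 (47.1%) in neither. Of the 13875 other genes, 1482 had one in replicate 2 alone, 2026 in replicate 3 alone and 3478 (25.1%) in neither. Where both replicates had a region, the strongest ones overlapped at 10 of 16 members (62.5%), against 71.7% of other such genes. The members with a region in both replicates made up 57.1% of those with one in replicate 2 and 64.0% of those with one in replicate 3, against 82.3% and 77.3% for other genes. No list had a region at 32 members (45.7%), against 24.3% of other genes.

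**Figure D1:**
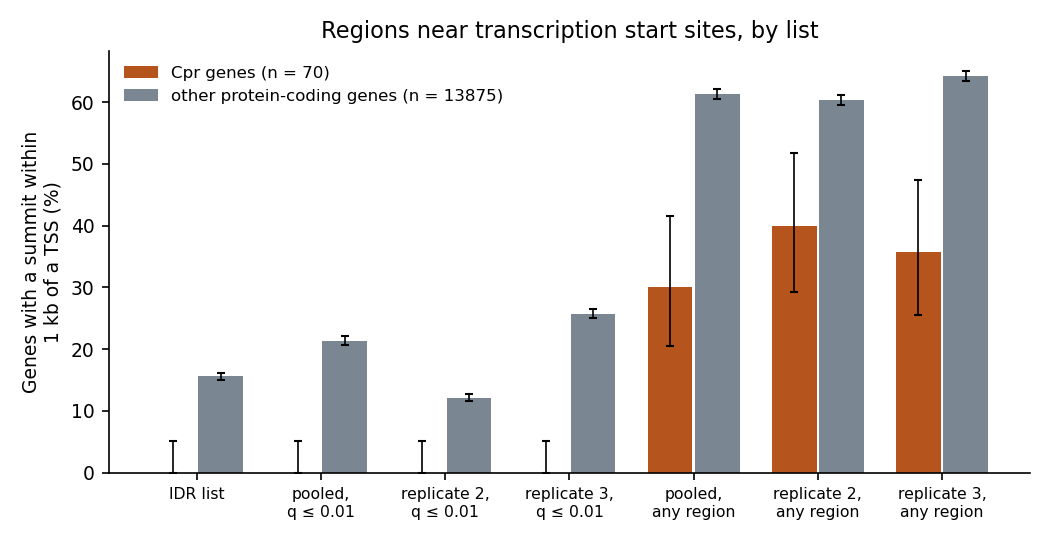
Percentage of the 70 Cpr genes and of the 13875 other protein-coding genes with a region summit within 1 kb of a TSS, for the IDR list, for regions with a q of 0.01 or less, and for all regions of the pooled and replicate lists. Bars start at 0 and error bars are 95% Wilson intervals. The Cpr bars are at 0 in the 4 strict lists and at 30, 40 and 35.7% in the 3 full lists, where the other genes are at 61.3, 60.3 and 64.3%.

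The regions that did lie at Cpr genes ranked below those at other genes, near the middle of each list. The strongest pooled region at each of the 21 members had a median signal of 30.6, with a lowest value of 23.2 and a highest of 53.1, against a median of 46.2 at other genes with a region. The weakest peak of the IDR list had a signal of 75.8, so no pooled region at a member reached that level. The median in replicate 2 was 15.1 (lowest 12.0, highest 31.7), against 20.1. The median in replicate 3 was 17.6 (lowest 13.1, highest 33.2), against 28.9. Put as a rank, the median member stood 53.5% down the pooled list, 55.3% down the replicate 2 list and 56.5% down the replicate 3 list. Other genes with a region stood at 21.3, 24.2 and 19.9%. Each value is that of the strongest region over all TSSs of a gene. Other genes more often had several TSSs or a neighbour's TSS within 1 kb. Signals and ranks were not compared within matched layouts. The median signals over all regions of the 3 lists were 31.5, 15.7 and 18.7, close to those at the members.

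Cpr73D, at 3L:16939100-16957689 on the minus strand, had the highest signal of the family in the pooled and replicate 2 lists. Its region had a signal of 53.1 in the pooled list and 31.7 in replicate 2, and a region on the other side of the TSS had 24.8 in replicate 3. The pooled and replicate 2 regions lay in the promoter of Ogdh, a subunit of the oxoglutarate dehydrogenase complex of the citric acid cycle. The pooled summit was 450 bp from the Ogdh TSS and 700 bp from that of Cpr73D, and the replicate 2 summit was 499 and 749 bp away. The replicate 2 region ranked 2250 in its list, and no other region at a member ranked so high in any list. In replicate 3 the summit was 996 bp upstream of the Cpr73D TSS and 1246 bp from that of Ogdh. In replicate 3 Cpr78Cc, Cpr65Av, Cpr31A and Cpr47Ed had higher signals than Cpr73D.

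Cpr31A, at 2L:10054213-10055935, had a signal of 52.3 in the pooled list, 17.4 in replicate 2 and 31.6 in replicate 3. Its summits fell in its own coding exon, 977 to 988 bp downstream of the TSS, close to the edge of the 1 kb window. Cpr78Cc, at 3L:21300580-21301171, had 45.9 in the pooled list, no region in replicate 2 and 33.2 in replicate 3, with both summits 177 bp downstream of its TSS. Its replicate 3 region carried the q of 0.0145, the smallest of the family. Cpr65Av, at 3L:6139223-6139974, had 44.5 in the pooled list, 14.9 in replicate 2 and 33.1 in replicate 3. The replicate 2 summit was 901 bp downstream of the TSS, on the other side of it from the pooled summit 461 bp upstream. For these 3 members the replicate 3 list held the higher-ranked region, and replicate 2 held a low one or none.

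Cpr49Ad had a signal of 46.7 in the pooled list, 26.8 in replicate 2 and 18.5 in replicate 3, and all 3 summits lay 219 or 220 bp downstream of its TSS. Cpr56F had 40.2, 21.8 and 17.1 in the same order, with the summits 508 bp upstream of its TSS in the pooled list, 511 bp in replicate 2 and 509 bp in replicate 3. Those summits were closer to the TSS of a non-coding gene, lncRNA:CR44638, at 92, 89 and 91 bp. For both members the summits of the replicates lay within a few bases of each other. Cpr57A had 37.1, 13.0 and 20.7, with each summit nearer to the TSS of its neighbour CG13430 than to its own. The pooled summit lay 577 bp from the CG13430 TSS and 648 bp from that of Cpr57A. Obp57d, a gene outside the family, has an annotated TSS at the same position as Cpr57A, so these distances do not separate Cpr57A from Obp57d. Cpr92A had 32.04, 14.5 and 13.5, Cpr5C had 30.6, 18.3 and 13.1, and Cpr49Ag had 28.6, 15.2 and 16.7. At Cpr92A the replicate 2 value belonged to a separate region, with its summit 684 bp upstream of the TSS. The pooled and replicate 3 summits of Cpr92A lay 938 and 951 bp downstream. Cpr47Ed had 28.7 in the pooled list and 25.7 in replicate 3, and no region in replicate 2. Cpr50Cb had 26.2 in the pooled list and 14.99 in replicate 2, and no region in replicate 3.

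**Figure D2:**
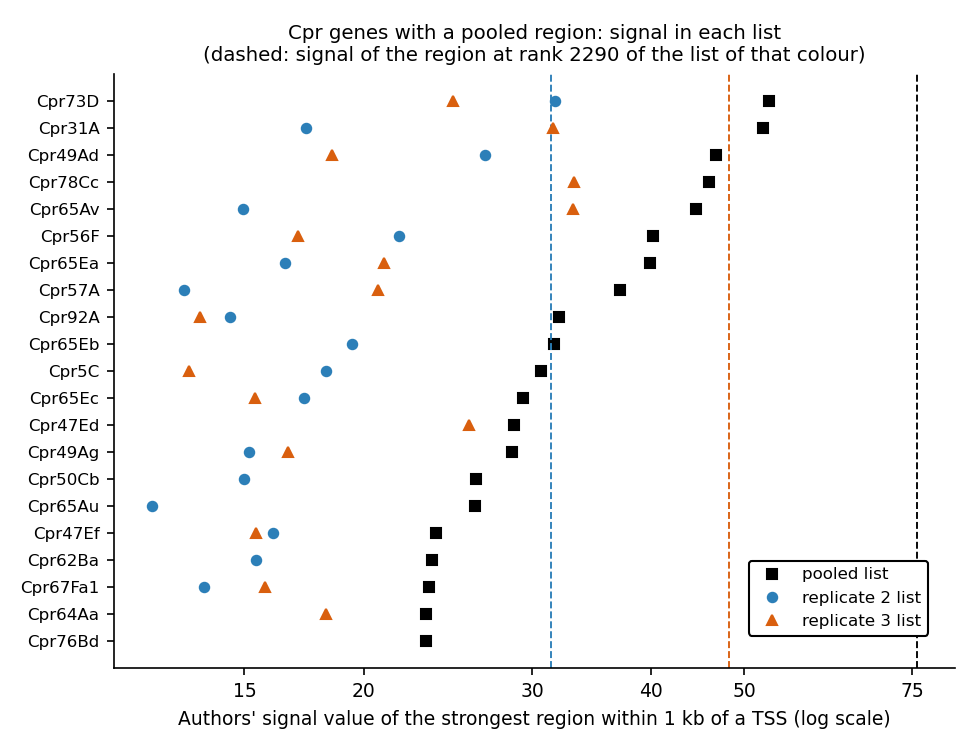
Signal value of the strongest region within 1 kb of a TSS at each of the 21 Cpr genes with a pooled region, on a log scale, in the pooled list and in each replicate list. Each point is a single region, and a missing point means that the list held none. The points of a gene need not be overlapping regions. The dashed line of each colour marks the region ranked 2290 in that list, at 75.8, 31.4 and 48.2 for the pooled, replicate 2 and replicate 3 lists, and only Cpr73D in replicate 2 lies to the right of its line.

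The regions at members were set against the nearest TSS outside the family. The same count was not made for pooled regions at other genes, so the counts are descriptive. Another protein-coding TSS, of the family or not, lay within 1 kb of 8.57% of members and 43.1% of other genes, so members had fewer close neighbours. A TSS more than 1 kb from a member can still be the nearer one to a summit. Of the 21 pooled regions at members, 19 were nearer to a Cpr TSS than to the TSS of any protein-coding gene outside the family, and 2 were nearer to such a gene, Ogdh and CG13430. In replicate 2, 3 of 28 were nearer to another protein-coding gene. The additional one lay 229 bp from the TSS of CG3119 and 807 bp from that of Cpr23B. In replicate 3 this held for 1 of 25, at CG13430. A non-coding gene's TSS was nearer than that of the member at 1 further pooled region, 2 in replicate 2 and 1 in replicate 3. In each list 1 of these was the region of Cpr56F, and the other in replicate 2 lay 205 bp from the TSS of asRNA:CR45171 and 365 bp from that of Cpr67Fb. Of the pooled summits, 14 fell in a promoter (within 500 bp of a protein-coding TSS), 4 lay outside protein-coding genes and their promoters, that of Cpr56F among them, and 3 lay in coding exons. By position, 9 were upstream and 12 downstream of the member's TSS, with a median distance of 286 bp.

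The local rise of regions at promoters was weak or absent in the family. In the 500 bp just upstream of the outermost TSS, 4 Cpr genes (5.71%, 2.24 to 13.8%) had a pooled summit, against 31.9% of other genes. In the 500 bp just downstream, 11 Cpr genes did (15.7%, 9.01 to 25.99%), against 20.4%. In the other bins out to 5 kb the shares ran from 1.43 to 14.3% for Cpr genes and from 12.4 to 15.1% for other genes. The upstream bin, where the other genes have their maximum, held fewer Cpr genes than the bin downstream of the start.

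**Figure D3:**
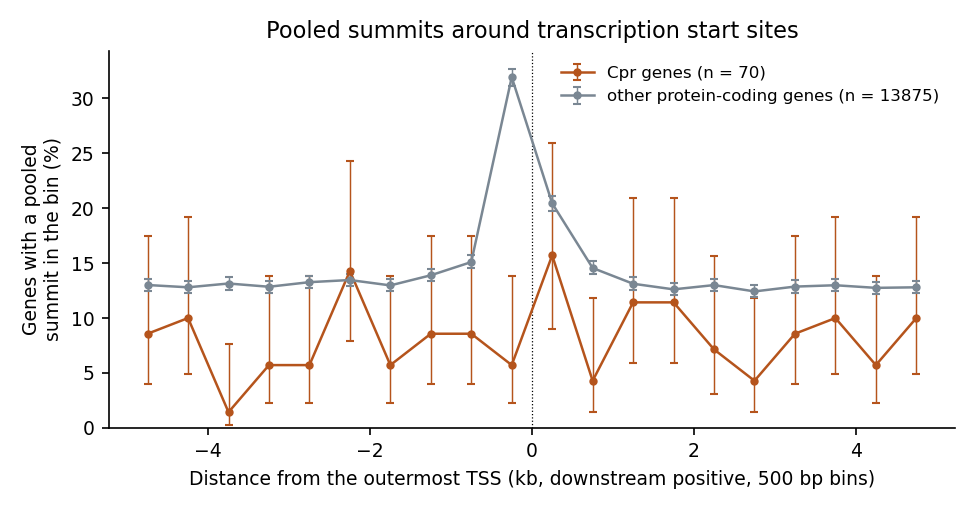
Percentage of genes with a pooled summit in each 500 bp bin from 5 kb upstream to 5 kb downstream of the outermost TSS, for the 70 Cpr genes and the 13875 other protein-coding genes. Points are bin shares and error bars are 95% Wilson intervals. The other genes peak at 31.9% in the bin just upstream of the start, where the Cpr genes are at 5.71%.

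Gene layout and repeats differ between the family and other genes, so the shares were set side by side within matched layouts. Among genes with a single TSS, a pooled region lay at 30.2% of 63 Cpr genes and 54.4% of others. Among genes with no other protein-coding gene's TSS within 1 kb, the values were 29.7% of 64 and 50.2%. With both conditions, 18 of 59 Cpr genes had a pooled region (30.5%, 20.3 to 43.1%), against 43.3% of 6051 others, and 0 of 59 had an IDR summit, against 5.62%. The difference in pooled regions was thus smaller among genes of like layout, and the interval for the family ended just below the share of the others. No interval was computed for the 0 of 59, so a difference in IDR peaks is not shown there. In genes with at least 90% of the 36-base words around the TSS unique in the genome, the shares were 30.9% and 63.3%. Of the 70 members 2 fell under that limit, the near-identical pair Cpr65Ax1 (37.5% unique) and Cpr65Ax2 (37.9%), for which reads could be lost or split. Neither had a region in any list.

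The TATA word and the regions were then compared. Among genes with the word, 13 of 34 Cpr genes had a pooled region (38.2%, 23.9 to 55.0%), and 37.6% of 1053 other genes did (34.7 to 40.6%). The shares were close, and the width of the family's interval leaves a difference of many percentage points undetectable. Among genes without the word, 8 of 36 Cpr genes had a pooled region (22.2%, 11.7 to 38.1%), against 63.2% of 12822 others. IDR summits lay at 0 of 34 members with the word and 0 of 36 without it, against 5.79 and 16.4% of other genes. The 0 of 34 allows a share of up to 8.82%, so a difference from 5.79% was not detectable. The 0 of 36 allows up to 8.33%. Over genes with the word, a single TSS and no other TSS within 1 kb, 13 of 32 Cpr genes (40.6%, 25.5 to 57.7%) and 32.9% of 632 others had a pooled region. In that stratum 2.69% of the others had an IDR summit, and 0 of 32 members allows a share of up to 9.38%. A difference in IDR peaks was not detectable there. Other genes with an IDR summit held the word in 2.82% of promoters, and those without one in 8.47%.

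**Figure D4:**
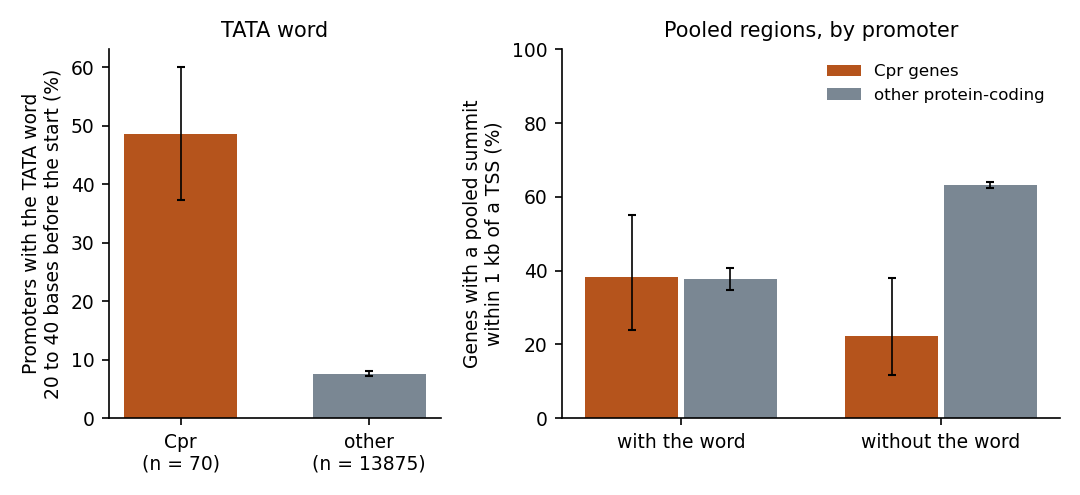
Left, percentage of promoters with TATAAA on the gene's strand, first base 40 to 20 bases before the start, in 70 Cpr genes (48.6%) and 13875 other genes (7.59%). Right, percentage of genes with a pooled summit within 1 kb of a TSS, split by that word, with error bars giving 95% Wilson intervals. With the word the shares are 38.2 and 37.6%, and without it 22.2 and 63.2%.

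Other short words were counted on both strands in the 300 bases from 250 before to 50 after the outermost start. The word TATAAA was found there in 70% of Cpr promoters and 45.7% of others. The initiator word TCAGT was found in 60% and 51.5%, and GAGAG, bound by GAGA factor, in 32.9% and 29.7%. The word GGTCACAC, bound by M1BP at housekeeping promoters, was in 0 of 70 Cpr promoters and 7.74% of others. The word TATCGATA, bound by DREF at genes of growth and replication, was in 1 Cpr promoter (1.43%) and 9.40% of others. Other genes with an IDR summit held these last words in 12.5% and 15.4% of promoters. Overlapping matches of different words were counted for each. A p53 half-site matched 8 Cpr promoters (11.4%, 5.91 to 21.0%) and 5.64% of others, and the family's interval included the value of the others. Within 100 bases of a pooled summit a half-site was found at 1 of the 21 regions near members (4.76%), against 3.58% of all pooled regions. A full p53 site was found at 2 of these 21 regions (9.52%, 2.65 to 28.9%), against 7.21% of IDR peaks, a value inside that interval. Full sites were not counted over all pooled regions, so their share at background regions is unknown. A full site here is a pair of half-sites, adjacent or 1 base apart, matched over 20 positions with 3 or fewer mismatches. A match is a match of letters and not a site of binding.

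IDR peaks also lay farther from the family than from other genes at short range. The nearest IDR summit was a median of 25172 bp from a Cpr TSS (lowest 1618, highest 104028 bp), against 13891 bp for other genes. Within 2 kb there was a summit for 1 Cpr gene (1.43%), against 18.7% of other genes, and within 5 kb for 4 (5.71%), against 28.9%. Within 10 kb the shares were 10% and 42.1%, and within 20 kb 37.1% and 59.2%. The upper quartiles were close, at 37068 bp for the family and 37986 bp for other genes. The nearest peaks to the 70 members were 36 different peaks with signals of 78.2 to 487. The nearest protein-coding TSS to 34 of these belonged to a gene outside the family, and 21 of the 36 lay within 500 bp of a protein-coding TSS. The same counts were not made over all 2290 IDR peaks, so they are descriptive. Only 70 of the 13945 protein-coding genes are members, so an outside gene would often be nearest in any case.

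**Figure D5:**
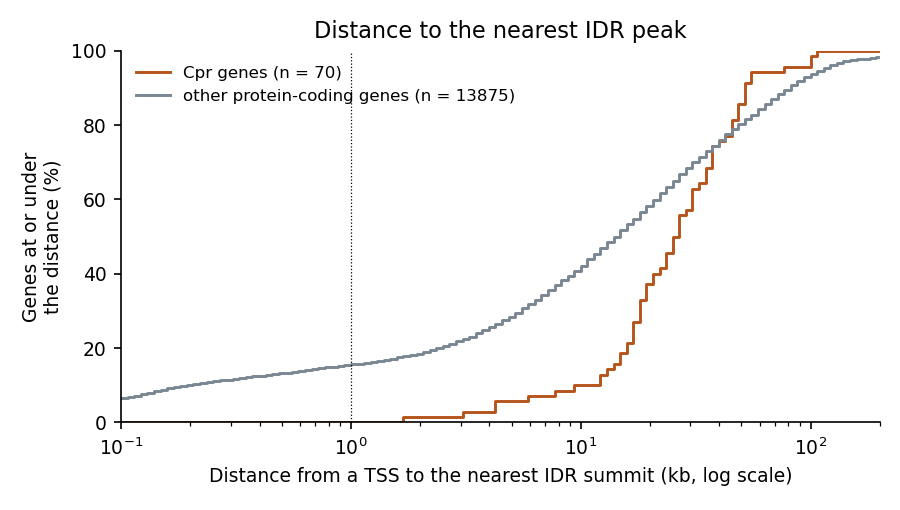
Cumulative percentage of genes whose nearest IDR summit lies at or under a given distance from a TSS, in kb on a log scale, for the 70 Cpr genes and the 13875 other protein-coding genes. The dotted line marks 1 kb. The Cpr curve leaves 0 at 1618 bp, reaches 10% at 10 kb where the other genes are at 42.1%, and crosses the other curve beyond 20 kb.

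The peak closest to a member lay beyond the 3′ end of Cpr76Ba. It spans 3L:19516620-19516822, 203 bp in dm6, and is intergenic. Cpr76Ba itself lies at 3L:19517552-19518332 on the minus strand, and the summit at 19516714 was 1618 bp from its TSS and 838 bp past its 3′ end. The signal was 309 in the pooled list (rank 113 of 26752), 107 in replicate 2 (rank 173) and 202 in replicate 3 (rank 90), so both replicates ranked it high. Every 36-base word in it was unique in the genome. The plus strand reads as follows, from the RefSeq Release 6 assembly, with the initiator letters found by the word search in capitals.
Peak beyond Cpr76Ba, 3L:19516620-19516822: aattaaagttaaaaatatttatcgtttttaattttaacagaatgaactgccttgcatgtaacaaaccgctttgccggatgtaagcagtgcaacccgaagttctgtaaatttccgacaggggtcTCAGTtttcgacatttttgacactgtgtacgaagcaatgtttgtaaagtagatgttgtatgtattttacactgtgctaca
None of the other 5 words occurred in it, the p53 half-site included. The closest match to a full p53 site had 6 mismatches. Cpr76Ba, Cpr76Bb, Cpr76Bc and Cpr76Bd all had this peak as their nearest. Within 1 kb of a TSS in this cluster the strongest pooled region was that of Cpr76Bd, with a signal of 23.2, and neither replicate list held one at that gene.

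Several of the other nearest peaks lay at or inside other genes. The peak nearest to the Cpr78C cluster, 3L:21304474-21304664, was 3990 bp from the TSS of Cpr78Cc and 88 bp from that of CG11309, with a signal of 302 in the pooled list, 131 in replicate 2 and 171 in replicate 3. The peak nearest to Cpr65Au lay 7292 bp away in a coding exon of l(3)mbn, with a pooled signal of 139. The peak nearest to Cpr92A lay 13917 bp away in an intron of Dys, the fly dystrophin gene, although the TSS of Cpr92A was the nearest one, with a pooled signal of 217. The strongest of the 36, with a pooled signal of 487, lay 17020 bp from Cpr67B in an intron of Atat, an alpha-tubulin acetyltransferase gene. Cpr23B had its nearest peak 17667 bp away, 8 bp from the TSS of RpS21, a ribosomal protein gene. The Cpr65E cluster was 97432 bp from its nearest peak.

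Clustered and isolated members gave similar shares. A pooled region lay within 1 kb of a TSS at 14 of 45 members in clusters of 3 or more (31.1%), at 1 of 4 in pairs, and at 6 of 21 standing alone (28.6%). At least 1 member had a pooled region in 10 of the 11 large clusters, all but Cpr72E. The Cpr65E cluster was the only one of them in which every member had one. There Cpr65Ea had a signal of 39.9 in the pooled list, 16.6 in replicate 2 and 21.0 in replicate 3. Cpr65Eb had 31.6 and 19.5 in the pooled and replicate 2 lists and no region in replicate 3, and Cpr65Ec had 29.3, 17.3 and 15.4. The replicate 2 region of Cpr65Ec was a separate one, with its summit 528 bp upstream of the TSS. Its pooled and replicate 3 summits lay 158 bp downstream. In 4 other clusters the strongest member had a pooled signal near the bottom of the list, at 23.6 for Cpr62Ba, 23.4 for Cpr67Fa1 and 23.2 for both Cpr64Aa and Cpr76Bd. Over the 253.8 kb spanned by the 34 units there were 44 pooled summits, or 17.3 per 100 kb, against 19.98 per 100 kb over the 6 arms. No IDR summit lay inside any of the 34 units.

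Shares for 4 lists of other genes of the cuticle were set beside those of the family. Over all protein-coding genes outside the Cpr family, 61.3% had a pooled region and 15.6% an IDR summit. Of 27 other cuticle protein genes, chosen by family name without a check of their domains (the Lcp, Ccp84A, Acp65A, Edg and Pcp genes), 9 had a pooled region (33.3%, 18.6 to 52.2%). An IDR summit was found at 1 of them (3.70%, 0.657 to 18.3%). The gene with the IDR summit was Lcp9, with a signal of 83.3 in the pooled list, 15.9 in replicate 2 and 56.2 in replicate 3. The nearest TSS to that summit was that of CG3594. Of 25 Tweedle genes, a separate family of cuticle proteins, 6 had a pooled region (24.0%, 11.5 to 43.4%) and 0 an IDR summit, which allows up to 12.0%. Of 22 genes of chitin synthesis and cuticle assembly, such as the chitin synthase gene kkv, 14 had a pooled region (63.6%, 43.0 to 80.3%). An IDR summit was found at 0 of them, which allows up to 13.6%. Of 18 regulators of moulting and the epidermis, 16 had a pooled region (88.9%, 67.2 to 96.9%). An IDR summit was found at 2 of them (11.1%, 3.10 to 32.8%), an interval that includes the 15.6% of other protein-coding genes. The peak of usp, which encodes the partner of the ecdysone receptor, had a signal of 136 in the pooled list, 56.6 in replicate 2 and 72.6 in replicate 3. That of Eip75B, an ecdysone-induced nuclear receptor gene, had 130, 58.2 and 73.7. Differences between these lists were not tested, and the lists were not matched for the number of TSSs or for close neighbours.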

How the data were processed

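The files hold p53-eGFP ChIP-seq regions of whole fly embryos, with libraries fragmented to 200 to 800 bp per the labels. The authors deposited 4 lists on dm6 (IDR, pooled, replicate 2, replicate 3). The signal value of each region and its −log10 q value are the authors' own, as deposited. The peak caller, aligner, IDR threshold and scaling of the signal were not given in the sources used here, and the dm3 copies were not used. The q values used were converted from the deposited −log10 values.

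Genes came from Ensembl release 115. Summits within 1 kb of any annotated TSS were assigned to the gene, keeping the region with the highest signal (Python 3.11.15, pandas 2.3.3, NumPy 2.4.6). Shares carry 95% Wilson intervals from SciPy 1.17.1, and a count of 0 allows 3. There is a single group, so no test between groups was run. The assignment was tested on simulated data. The named genes are the 15 members with the highest pooled signal, the strongest member of each cluster of 3 or more, any member with an IDR summit or a q of 0.01 or less, and the owners of nearby TSSs. Cpr23B and the genes in the accounts of nearest peaks, promoters, Cpr65Ax1 and Cpr65Ax2 were chosen after their values were seen. The members and lists were chosen with earlier results of these data known. Of the listed genes of assembly and of moulting, 2 and 1 names matched no gene. Alternatives are given in the closing section.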

Additional observations from a re-analysis of the deposited data

How the results depend on the processing

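Of 44 alternative values for the 6 main results, 31 stayed close to the reported value and 13 moved. The 31 include values that could not move. With 0 IDR summits at 1 kb, a 500 bp window, a single TSS per gene or the stronger part of the peaks could only give 0. The counts of clusters and of peaks nearer to an outside gene are 0 whenever the gene count is 0, and regrouping the clusters cannot change that. Close meant within 1.5 times for a count, within the SD of the replicate medians (1.81) for the median signal and within the Wilson interval for the TATA share. The count of Cpr genes with an IDR summit stayed at 0 at 500 bp, with a single TSS per gene, in the stronger part of the IDR peaks by signal, with pooled regions of q 0.01 or less and with any base of the region in the window. It became 1 at 2 kb (Cpr76Ba) and 1 when the other Lcp, Ccp84A, Acp65A, Edg and Pcp genes were added (Lcp9, 1 of 97 genes). At 5 kb, a distance chosen after seeing the data, it was 4. With either replicate left out, using the 2290 strongest regions of the other, it ranged from 0 to 1, the 1 being Cpr73D in replicate 2. The number of clusters with a summit, reported as 0, was likewise 1 at 2 kb and 0 to 1 with a replicate left out. The number of peaks nearer to an outside gene ranged from 0 to 1 with a replicate left out. The pooled count of 21 became 15 at 500 bp (21.4% against 50.9% of other genes), 36 at 2 kb (51.4% against 72.8%) and 30 of 97 with the added genes. It ranged from 25 to 28 with a replicate left out. The median signal of 30.6 became 26.2 at 500 bp and 33.5 at 2 kb, and was 15.1 to 17.6 in the replicate lists, which are on their own scales. The TATA share of 70% in the 300 bases was 64.3% in the 60 bases before the start and 48.6% in the own-strand window, which was chosen after seeing the data. Without read counts, depth cannot be set against the missing regions. No paired analysis was possible because the study has a single group.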
